A study of Rattus norvegicus with 16 samples.

Results

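The neural adhesion molecule genes were those of the cadherin, protocadherin, contactin, contactin-associated protein, neurexin and neuroligin families that the array measured in newborn rat retina. Members had exactly 1 annotated gene symbol, made of Cdh, Pcdh, Cntn, Nrxn or Nlgn and a digit, or beginning with Cntnap. The endothelial cadherin Cdh5 and the clustered protocadherins were left out. The rule found 37 genes among the 14324 named genes, and only Nrxn2 had over 1 probe set, of which the set with the higher mean was used. By family there were 3 type I cadherins, 7 type II cadherins, 4 other cadherins, 7 non-clustered protocadherins, 6 contactins, 5 contactin-associated proteins, 2 neurexins and 3 neuroligins. Cdh3, Cdh4, Cdh11, Pcdh12 and Cntnap2 were not analysed here.

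The study used oxygen-induced retinopathy, a model in which swings of inspired oxygen disturb the growth of retinal vessels, in Fischer 344 (F344) rats, which it treats as resistant, and Sprague Dawley (SD) rats, which it treats as susceptible. The 8 groups were F344 in room air on post-natal day 5, F344 under cyclic hyperoxia on day 5, SD in room air on day 5, SD under cyclic hyperoxia on day 5, and the same 4 on day 6. Mothers and litters of the hyperoxia groups entered the chamber at most 12 h after birth, and the gas then switched every 24 h between 80% and 21% oxygen. The labels do not give the oxygen level of the last phase before sampling. All groups were whole retina of unmodified rats, and each group had 2 arrays of pooled RNA. The design text mentions 3 rats and 2 litters for the pools without making clear whether this describes each pool, and the p-values cover no more than the spread among such pools. In bulk retina, fewer cells of a type and less RNA per cell cannot be told apart.

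Cadherins bind the same or similar cadherins on a neighbouring cell and are held to the actin skeleton through catenins, and protocadherins are related adhesion proteins with other cytoplasmic partners. Contactins are immunoglobulin-type proteins anchored to the outer membrane by a lipid, and several pair with contactin-associated proteins, which span the membrane. Neurexins sit mainly on the presynaptic side and bind neuroligins on the postsynaptic side. In the retina these families are known for sorting neurons into layers and matching synaptic partners. Synapses of the plexiform layers form during the days after birth in rats.

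Values are the log2 expression values that the authors deposited. A level is the mean of the arrays of a group, a change is a difference of log2 levels with its moderated standard error (n = 2 arrays per group), and a gene was called at a Benjamini-Hochberg adjusted p under 0.05 over all 14324 genes in limma. Array medians lay between 5.452 and 5.524. Replicates of a group correlated across genes at 0.992 to 0.996 in 7 groups and at 0.987 in F344 hyperoxia day 6, where replicate 2 stood apart with the lowest interquartile range of all arrays, 2.813. In that pair 6 of the 37 members differed by over 0.5, with a median difference of 0.21, against 0 to 2 members and medians of 0.08 to 0.16 in the other groups. Of the 35 measured markers of 6 retinal cell classes, 32 had a mean above the lowest array median, from 11.77 for the cone gene Gnat2 down, while the cone gene Arr3 (5.42), Aqp4 of Muller glia (4.75) and Lhx1 of horizontal cells (4.14) did not. Skeletal muscle markers lay between 4.2 and 5.45 and the pigment epithelium gene Rpe65 at 4.26, although Ttr (8.98) and Tyrp1 (6.53), also listed for pigment epithelium, and the lens gene Cryba1 (6.5) were above the median.

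Of the members, 19 lay above 5.452, the lowest array median, in all 8 groups, 7 in some groups and 11 in none. The 12 with the highest values were Cdh2, the N-cadherin of neural tissue, at 9.64 (9.32 to 10.06 over 16 arrays), the axonal contactin Cntn1 at 9.48 (8.98 to 9.98), the neurexin Nrxn3 at 8.84, the neuroligin Nlgn1 of excitatory synapses at 8.76, the type II cadherins Cdh7 at 8.06, Cdh20 at 7.86 and Cdh8 at 7.74, Pcdh18 at 7.70, Cntn4 at 7.45, Pcdh17 at 7.28, Pcdh7 at 6.96, and Nlgn3 at 6.92. Then came Nrxn2 at 6.74, Cdh6 at 6.49, Nlgn2 (the neuroligin of inhibitory synapses) at 6.4, Pcdh8 at 6.37, Cntn3 at 5.98, Pcdh1 at 5.95 and Cdh22 at 5.76. The 7 near the array median were Cntn6, Cntnap4, Cntnap5b, Cntnap1, Cdh10, Cdh13 and Cntn5, between 5.32 and 5.49. The 11 below it in every group ran from Pcdh11x at 4.99 to Cdh19 at 3.77, and included Cdh1, the E-cadherin of epithelia, at 4.20. The other 8 of these were Cntn2, Cdh15, Pcdh20, Cntnap5a, Cdh16, Cntnap5c, Cdh23 and Cdh17. A probe set's level depends on its probes, so the order of these means is not an order of transcript abundance, and ratios of dim genes include background.

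**Figure D1:**
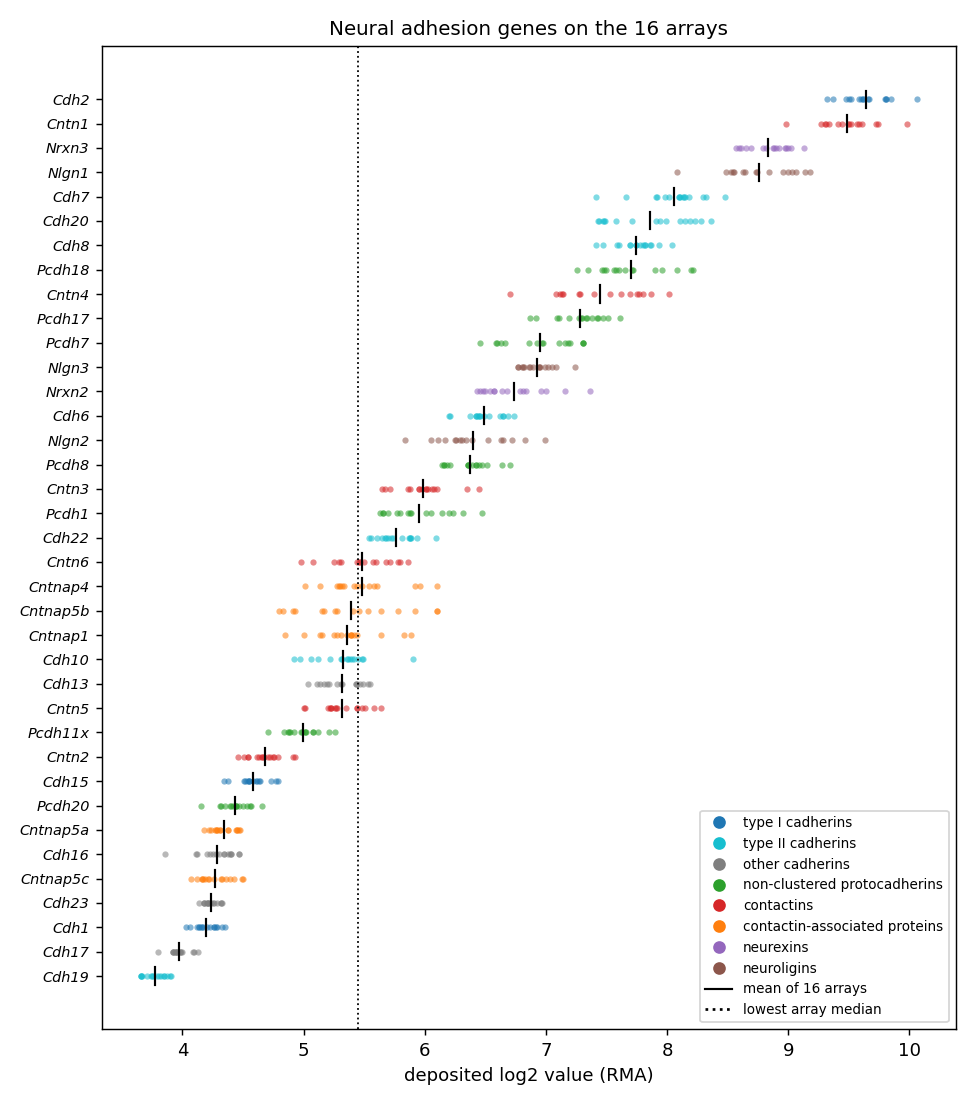
Deposited log2 value (horizontal axis) of each of the 37 genes (vertical axis, ordered by mean) on the 16 arrays; points are arrays coloured by family, bars are means and the dotted line is the lowest array median, 5.452. Cdh2 and Cntn1 lie highest, at 9.64 and 9.48, and 11 genes lie left of the line in every group.

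Over the 8 groups, limma's moderated F test called 11 of the 37 members (29.7%), against 21.8% of all genes. They were Nrxn2 (adjusted p = 0.00342), Cdh20 (0.00371), Nlgn1 (0.00922), Cntnap4 (0.0121), Cntnap5b (0.0132), Nrxn3 (0.0204), Pcdh1 (0.0368), Cntn5 (0.0422), Pcdh17 (0.0428), Cdh22 (0.0459) and Cntnap1 (0.0468). The count was 21, with 35.6% of all genes, without F344 day 6 hyperoxia array 1, where only the array that stood apart was left in its group. It was 5 to 7 without either room air day 5 array of F344, either hyperoxia day 5 array of SD, either room air day 6 array of F344, or either hyperoxia day 6 array of SD, with 12.6% to 22% of all genes.

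Cyclic hyperoxia was compared with room air within each strain and day. The clearest response of a member was a fall of Cntnap4 in SD retina on day 6. Cntnap4 encodes a membrane protein of the neurexin superfamily that is known from inhibitory interneurons. Its 2 SD arrays on day 6 read 6.10 and 5.96 in room air and 5.14 and 5.01 under hyperoxia. The hyperoxia arrays thus lay well below the room air arrays, and they were also the lowest of all 16. Its change of -0.95 ± 0.16 (limma adjusted p = 0.0123), a ratio of 1.94, was the most negative of all 14324 genes in that comparison. Because the SD hyperoxia mean was under the lowest array median, this ratio includes background.

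In F344 on day 6 Cntnap4 read 5.28 and 5.58 in room air and 5.54 and 5.33 under hyperoxia, so the groups overlapped (0.00 ± 0.16, adjusted p = 0.993). On day 5 it read 5.61 and 5.44 in SD room air, 5.30 and 5.29 in SD hyperoxia, 5.42 and 5.92 in F344 room air, and 5.48 and 5.32 in F344 hyperoxia. Those day 5 changes were -0.24 ± 0.16 in SD (adjusted p = 0.675) and -0.27 ± 0.16 in F344 (adjusted p = 0.69). The difference between strains on day 6, SD minus F344, was -0.96 ± 0.22 and did not pass (adjusted p = 0.1).

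The day 6 call of Cntnap4 in SD was lost without SD day 6 hyperoxia array 1 (-1.02, adjusted p = 0.14), SD day 6 hyperoxia array 2 (-0.89, 0.0708) or SD day 6 room air array 1 (-0.88, 0.0962). Bipolar cell markers had lower values in the same comparison. All 4 measured of 7 listed had lower values in SD hyperoxia on day 6, with a median of -0.69 and 1 called, and their summed linear level was 1040 to 1210 against 1420 to 2000 in SD room air and 933 to 1320 in the F344 groups of day 6. The 5 measured of 7 endothelial markers were lower as well (median -0.40, 1 called), with summed levels of 151 on both hyperoxia arrays against 197 to 203. The 8 amacrine and horizontal cell markers did not share this direction, with 5 higher and 3 lower values (median 0.05, 0 called). Array values do not reach 0, and the part of these markers in the Cntnap4 result was not tested.

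Cntnap4 was the only member called in SD on day 6, 1 of 37 (2.7%), against 2.79% of all genes called in either direction and 0.565% called lower. The median over the members was -0.21, with 27 lower and 10 higher values, against -0.01 over all genes. A total of 13 members (35.1%) had an unadjusted p under 0.05, 12 of them lower (32.4%), against 18.8% of all genes and 8.54% lower. Among those that did not pass were the protocadherins Pcdh7 (-0.56 ± 0.18, adjusted p = 0.109) and Pcdh17 (-0.44 ± 0.13, adjusted p = 0.0806), the neurexin Nrxn3 (-0.37 ± 0.10, adjusted p = 0.0671) and the contactins Cntn5 (-0.36 ± 0.12, adjusted p = 0.113) and Cntn1 (-0.41 ± 0.16, adjusted p = 0.167). Without either F344 hyperoxia day 6 array, which this comparison uses only for the shared spread, 4 members were called, Cntnap4, Cntnap5b, Nrxn3 and Pcdh7, with 6.94% of all genes.

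In F344 on day 6, limma called 0 of 37 members, against 1.19% of all genes. A total of 5 (13.5%) had an unadjusted p under 0.05, all with lower values, against 17.6% of all genes and 10.8% lower. The smallest p-values belonged to Nrxn2 and to Pcdh8, a protocadherin known to be induced by neuronal activity. Pcdh8 read 6.51 and 6.70 in room air and 6.21 and 6.14 under hyperoxia, groups that did not overlap, but the change of -0.43 ± 0.13 did not pass (adjusted p = 0.0911). The median over members was -0.07, against 0.00 over all genes. It was -0.15 over only the 26 members with a group mean above the lowest array median. Over all members it was -0.03 without F344 day 6 hyperoxia array 2. Without F344 day 6 hyperoxia array 1, 2 members were called, Nlgn1 and Nrxn3 (5.41%), against 11.3% of all genes.

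The mean of both strains on day 6 called 2 members, Nrxn3 and Cntnap4 (5.41%), against 6.74% of all genes in either direction and 2.73% lower. An unadjusted p under 0.05 was reached by 13 (35.1%), against 23.9% of all genes. Nrxn3, a presynaptic organiser, fell in the mean of strains. On day 6 it read 9.0 and 8.98 in SD room air, 8.59 and 8.65 in SD hyperoxia, 9.02 and 9.13 in F344 room air, and 8.88 and 8.69 in F344 hyperoxia. Hyperoxia arrays were below room air arrays in both strains, with the lower values in SD. The mean change was -0.33 ± 0.07 (limma adjusted p = 0.0178), a 1.26-fold lower level, from -0.37 ± 0.10 in SD and -0.29 ± 0.10 in F344 (adjusted p = 0.165). The mean change of Cntnap4 was -0.47 ± 0.11 (adjusted p = 0.0211), with -0.95 in SD and 0.00 in F344.

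Both of these calls were lost without array 2 of F344 day 6 hyperoxia or F344 day 6 room air. They were also lost without array 1 of SD day 6 hyperoxia or SD day 6 room air. Fewer of all genes passed in these fits as well. Over the 16 fits with an array left out, the change stayed at -0.38 to -0.28 for Nrxn3 and -0.55 to -0.4 for Cntnap4. Of the 2 called members, only Nrxn3 was lost without F344 day 6 room air array 1, and only Cntnap4 without SD day 6 hyperoxia array 2. Without F344 day 6 hyperoxia array 1 there were 11, namely Cdh2, Cdh6, Cdh7, Cntn1, Cntn3, Cntn5, Cntnap4, Cntnap5b, Nlgn1, Nrxn3 and Pcdh7, with 19.8% of all genes called, and the F344 hyperoxia group then held only the array that stood apart. Without any array left out, Cdh2 (-0.30 ± 0.10, adjusted p = 0.0713), Nlgn1 (-0.32 ± 0.11, adjusted p = 0.0794) and Cntn5 (-0.25 ± 0.08, adjusted p = 0.0866) did not pass. The medians were -0.17 for members and -0.01 for all genes.

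On day 5 no member passed in either strain or in their mean. In SD 0 of 37 members were called by limma, against 0.0628% of all genes, and 8 (21.6%) had an unadjusted p under 0.05, all lower, against 9.05% of all genes and 4.39% lower (median of members -0.10, 31 lower and 6 higher values, all genes 0.01). Nrxn3 read 8.97 and 8.92 in room air and 8.57 and 8.61 under hyperoxia, a change of -0.36 ± 0.10 (adjusted p = 0.391). Pcdh17, a protocadherin of axons and synapses, read 7.27 and 7.61 in room air and 6.87 and 7.11 under hyperoxia (-0.45 ± 0.13, adjusted p = 0.391). For both genes the SD hyperoxia arrays lay below the room air arrays without overlap. With an array left out the change ranged from -0.38 to -0.33 for Nrxn3 and from -0.62 to -0.27 for Pcdh17. Over only the 26 members with a group mean above the lowest array median, the SD median on day 5 was -0.22.

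In F344 on day 5, 0 members were called, against 0.126% of all genes, and 4 (10.8%) had an unadjusted p under 0.05, 2 in each direction, against 8.36% of all genes (median -0.07, all genes 0.01). Nrxn2 (0.50 ± 0.12, adjusted p = 0.226) and the epithelial and neuronal protocadherin Pcdh1 (0.40 ± 0.16, adjusted p = 0.487) had the smallest p-values, both with higher values. The F344 hyperoxia arrays of Pcdh1 read 5.89 and 6.47, and its change ranged from 0.1 to 0.69 with an array left out. In the mean of strains 0 members were called, against 0.209% of all genes, with 7 (18.9%) at an unadjusted p under 0.05, against 11.2%. The smallest p-values there were those of Cntn5 (-0.25 ± 0.08, adjusted p = 0.298) and Nrxn3 (-0.22 ± 0.07, adjusted p = 0.307).

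By family, the oxygen values differed in how many members lay on each side of 0. All 5 contactin-associated proteins had lower values under hyperoxia in SD on both days (medians -0.24 on day 5 and -0.23 on day 6). Among them Cntnap5a and Cntnap5c lay below the lowest array median in every group, so their values include background. In F344 the 5 split 4 lower and 1 higher on day 5, and 2 lower and 3 higher on day 6. Of those 3, Cntnap4 (0.00) and Cntnap1 (0.01) barely moved. Of the 6 contactins, 5 were lower in SD on day 5 and 4 in each of the other oxygen comparisons, with the lowest median in SD on day 6 (-0.38). Of the 7 type II cadherins, 6 were lower in SD on both days and in F344 on day 5, and 3 in F344 on day 6. The 7 protocadherins split 6 to 1 toward lower values in SD on day 5 and 5 to 2 on day 6. In F344 they split 3 lower to 4 higher on day 5 and 4 lower to 3 higher on day 6. Of the 3 type I cadherins, 2 were lower in SD on day 5 and 1 on day 6, and of the 4 other cadherins 3 each day. Of the 2 neurexins, 2 were lower in SD on day 5 and 1 on day 6, and of the 3 neuroligins 2 each day. For these 4 families the F344 counts, in the same order, were 2 and 2, 2 and 2, 1 and 2, and 1 and 3. Only Cntnap4 in SD on day 6 was called among all of these, and the family counts were not tested.

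The brightest members show the size of these values. Cntn1, at 9.98 and 9.72 in SD room air on day 6, read 9.30 and 9.57 under hyperoxia, without overlap. In F344 that day it read 9.27 and 9.50 in room air and 9.44 and 8.98 under hyperoxia, where the groups overlapped. Cdh2 read 9.81 and 10.06 in SD room air on day 5 against 9.62 on both hyperoxia arrays, and in F344 on day 6 9.81 and 9.67 against 9.50 and 9.32, also without overlap. Its oxygen effects were -0.31 and -0.27 in SD and -0.05 and -0.33 in F344 on days 5 and 6 (SE 0.14 each), none called. Cntn4, a contactin of axon guidance in the visual system, ranged from 6.70 to 8.02 over the arrays and had a wider error, with -0.53 ± 0.24 in SD on day 6 (adjusted p = 0.253).

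Of the genes called over the 8 groups but in no single comparison, Cntn5 ranged from 5.0 to 5.64, with its highest arrays (5.64 and 5.58) in SD room air on day 6. Cdh22 ranged from 5.54 to 6.09, and its day difference under hyperoxia was 0.22 ± 0.07 (adjusted p = 0.118). Cntnap1 ranged from 4.85 on an SD hyperoxia array of day 5 to 5.89 on an F344 hyperoxia array of day 6, with a day difference under hyperoxia of 0.40 ± 0.12 (adjusted p = 0.0691).

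Across the 4 oxygen comparisons, which share no arrays, 13 members (35.1%) had lower values under hyperoxia each time, and 0 had higher values each time. Over all genes 14.3% were lower and 12.7% higher in all 4. The 13 were Cdh2, Cdh6, Cdh7, Cdh13, Cntn1, Cntn3, Cntn5, Cntnap5b, Cntnap5c, Nlgn1, Nrxn3, Pcdh7 and Pcdh18. Of the 19 members above the lowest array median in every group, 9 were among them. This is a count of signs over genes measured on the same arrays, and no test was made of it. The postsynaptic Nlgn2 had higher values in 3 of the 4 and lower in F344 on day 6 (-0.22 ± 0.24, adjusted p = 0.68), while Nlgn3 ranged from -0.21 to 0.10 and Cdh13, a lipid-anchored cadherin, from -0.29 to -0.03, none of them called. Cntnap1, the contactin-associated protein of the axon beside the node of Ranvier, ranged from -0.31 to 0.01 and Cdh1 from -0.06 to 0.09.

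**Figure D2:**
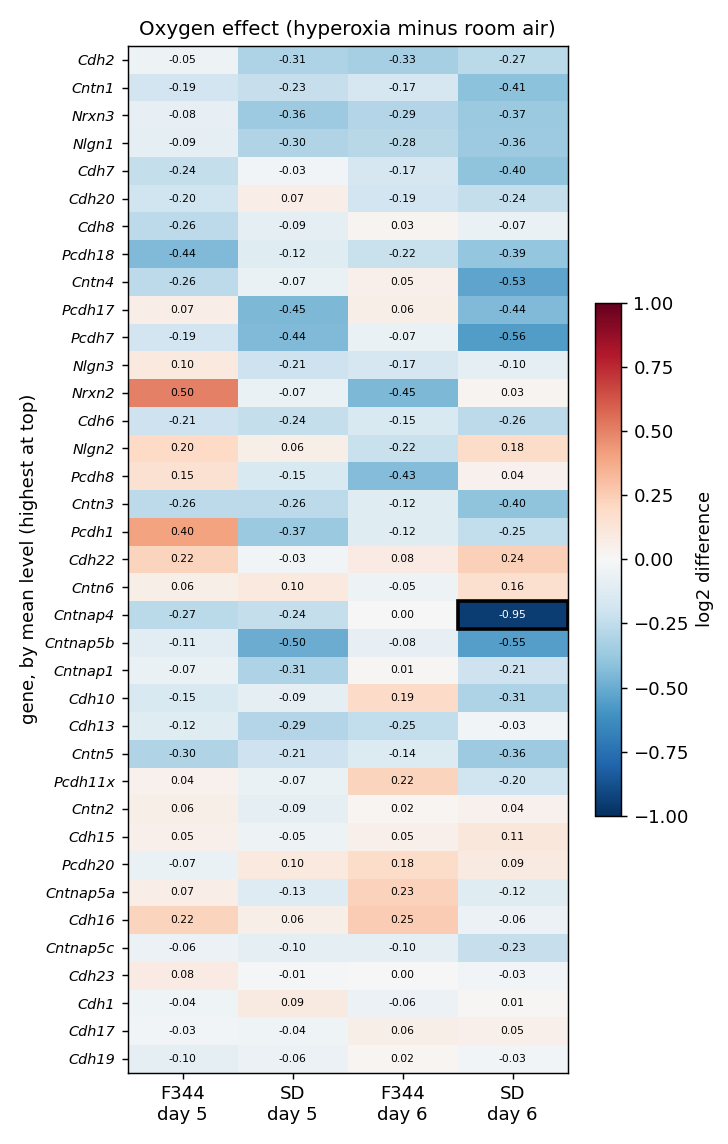
Log2 change under cyclic hyperoxia (colour and printed number) of the 37 genes (vertical axis, by mean level, highest at top) in each strain and day (horizontal axis, 2 arrays per group). The framed cell, Cntnap4 in SD on day 6 at -0.95, is the only called change, and 13 genes are lower in all 4 columns.

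The oxygen response was then compared between strains and between days. Limma called 0 members for SD minus F344 on day 5, against 0% of all genes, with 3 members (8.11%) at an unadjusted p under 0.05, against 6.14% of all genes. Pcdh1 differed by -0.77 ± 0.22 and Nrxn2 by -0.57 ± 0.17, both at an adjusted p of 0.788. With an array left out these ranged from -1.06 to -0.47 for Pcdh1 and from -0.7 to -0.44 for Nrxn2. On day 6, 0 members were called, against 0.0559% of all genes, with 6 (16.2%) at an unadjusted p under 0.05, against 11.5%. After Cntnap4 the smallest p there was that of Nrxn2 (0.47 ± 0.17, adjusted p = 0.285). Between days, in the mean of strains, 0 members were called, against 0.182% of all genes, and Nrxn2 alone (2.7%, against 8.46% of all genes) had an unadjusted p under 0.05 (-0.42 ± 0.12, adjusted p = 0.308). Pcdh8 followed at -0.19 ± 0.13 (adjusted p = 0.75).

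Nrxn2, the other neurexin among the members, had opposite oxygen effects on the 2 days in F344. In F344 it read 6.46 and 6.50 in room air and 7.0 and 6.96 under hyperoxia on day 5, against 7.16 and 7.36 in room air and 6.79 and 6.84 under hyperoxia on day 6. Hyperoxia arrays were thus above room air arrays on day 5 and below them on day 6, without overlap on either day. In SD all 8 arrays lay between 6.43 and 6.81, with changes of -0.07 ± 0.12 on day 5 (adjusted p = 0.897) and 0.03 ± 0.12 on day 6 (adjusted p = 0.942). The F344 effect was 0.50 ± 0.12 on day 5 and -0.45 ± 0.12 on day 6 (adjusted p = 0.0773), neither called. Their difference, a contrast added after the data were seen, was -0.94 ± 0.17 (limma adjusted p = 0.0249), with 1.02% of all genes called, against 0.10 ± 0.17 in SD (adjusted p = 1). A second probe set of Nrxn2 did not show this pattern, with group means of 6.20 to 6.44 and of 6.37 against 6.4 in F344 room air and hyperoxia on day 6. The call of the F344 difference was kept in 11 of 16 fits with an array left out. It was lost with the mean over both probe sets, after quantile normalization and with only the F344 arrays.

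Strains were compared under cyclic hyperoxia, over both days, and here 4 members (10.8%) were lower in SD and 0 higher, against 3.78% of all genes lower and 8.96% called in either direction. A total of 9 members (24.3%) had an unadjusted p under 0.05, near the 23.3% of all genes. The 4 were the protocadherins Pcdh1, Pcdh17 and Pcdh7 and the neurexin Nrxn2, and 3 of the 7 protocadherins were thus among them. The members' median was 0.00 (19 higher and 18 lower values), as against 0.01 over all genes.

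Under hyperoxia, Pcdh1 read 5.66, 5.63, 5.70 and 5.66 in SD (day 5, then day 6) and 5.89, 6.47, 6.23 and 6.05 in F344. Every SD array was below every F344 array. The difference was -0.50 ± 0.11 (limma adjusted p = 0.0117), a 1.41-fold lower level in SD. It was -0.35 (adjusted p = 0.0603) without F344 day 5 hyperoxia array 2, the array with 6.47, and was called in the other 15 fits with an array left out. In room air the strains differed by -0.05 ± 0.11 over both days (limma adjusted p = 0.844), a mean of opposite differences. Room air arrays read 5.88 and 6.14 in SD and 5.80 and 5.77 in F344 on day 5. On day 6 they read 6.01 and 5.86 in SD and 6.20 and 6.32 in F344. SD was thus higher on day 5 and lower on day 6, without overlap on either day.

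Pcdh17 read 6.87, 7.11, 6.92 and 7.09 in SD and 7.33, 7.30, 7.47 and 7.42 in F344 under hyperoxia, again without overlap. It was 1.30-fold lower in SD (-0.38 ± 0.09, adjusted p = 0.0184). In room air SD read 7.27, 7.61, 7.38 and 7.51 and F344 7.29, 7.19, 7.34 and 7.43, so the groups overlapped (0.13 ± 0.09, adjusted p = 0.446). The call was lost without F344 day 5 hyperoxia array 1 (adjusted p = 0.0515) or 2 (0.0645), SD day 5 hyperoxia array 1 (0.101) or SD day 6 hyperoxia array 1 (0.0985).

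Pcdh7 read 6.59, 6.63, 6.46 and 6.60 in SD and 6.97, 7.16, 7.31 and 6.66 in F344 under hyperoxia. The F344 hyperoxia day 6 array that stood apart, at 6.66, came close to the SD arrays, though none overlapped. The difference was -0.46 ± 0.13 (adjusted p = 0.0399), against -0.09 ± 0.13 in room air (adjusted p = 0.748). Without that array it was called. It was called in 7 of 16 fits with an array left out and lost without any of the 4 hyperoxia day 5 arrays, F344 day 6 hyperoxia array 1 (-0.30), either F344 room air day 6 array, or either SD hyperoxia day 6 array, at an adjusted p of up to 0.157.

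Nrxn2 under hyperoxia was 1.25-fold lower in SD (-0.32 ± 0.09, adjusted p = 0.0348), with 6.43 to 6.68 in SD against 6.79 to 7.0 in F344. On its second probe set, hyperoxia group means were 6.44 and 6.4 in SD and 6.33 and 6.4 in F344 (day 5, then day 6). SD means were not lower there. With the mean over both probe sets the difference was -0.13 (limma adjusted p = 0.39). The call was also lost without any of the 4 hyperoxia day 5 arrays, F344 day 6 hyperoxia array 2 or SD day 6 hyperoxia array 1, at an adjusted p of up to 0.169. Without F344 day 5 hyperoxia array 2, 0 of the 4 genes were called, and 1 was called without F344 day 5 hyperoxia array 1, SD day 5 hyperoxia array 1 or SD day 6 hyperoxia array 1. There were 2 without SD day 5 hyperoxia array 2.

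In room air limma called 0 of 37 members for SD minus F344, against 9.35% of all genes, and 5 (13.5%) had an unadjusted p under 0.05, against 23.4%. The smallest p-values belonged to Nrxn2 (-0.27 ± 0.09, adjusted p = 0.0661) and the type II cadherin Cdh10 (0.36 ± 0.12, adjusted p = 0.0679). Without F344 day 6 hyperoxia array 1 or 2, F344 day 6 room air array 1 or SD day 6 room air array 2, 1 member was called, Cdh10 except without F344 day 6 room air array 1, where it was Cdh16. The difference in strain difference between hyperoxia and room air was not tested over both days. Within a day it equals the oxygen effect of SD minus F344 given above. There limma called 0 of 37 members on day 5, against 0% of all genes, and 0 on day 6, against 0.0559%. Rod markers were higher in SD by median in both conditions, with 1 of 5 lower in room air. The 5 measured of 7 had medians of 0.73 in room air and 0.45 under hyperoxia with 4 called each time, and their summed linear level under hyperoxia was 5210 to 8320 in SD and 3860 to 6760 in F344. Ganglion markers had medians of 0.17 in room air (5 of 8 higher, 2 called higher) and -0.13 under hyperoxia (6 of 8 lower, 1 called lower). Bipolar markers had medians of 0.44 in room air (2 called higher, 1 lower) and -0.17 under hyperoxia (3 of 4 lower, 1 called lower). The part of these markers in the differences above was not tested.

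**Figure D3:**
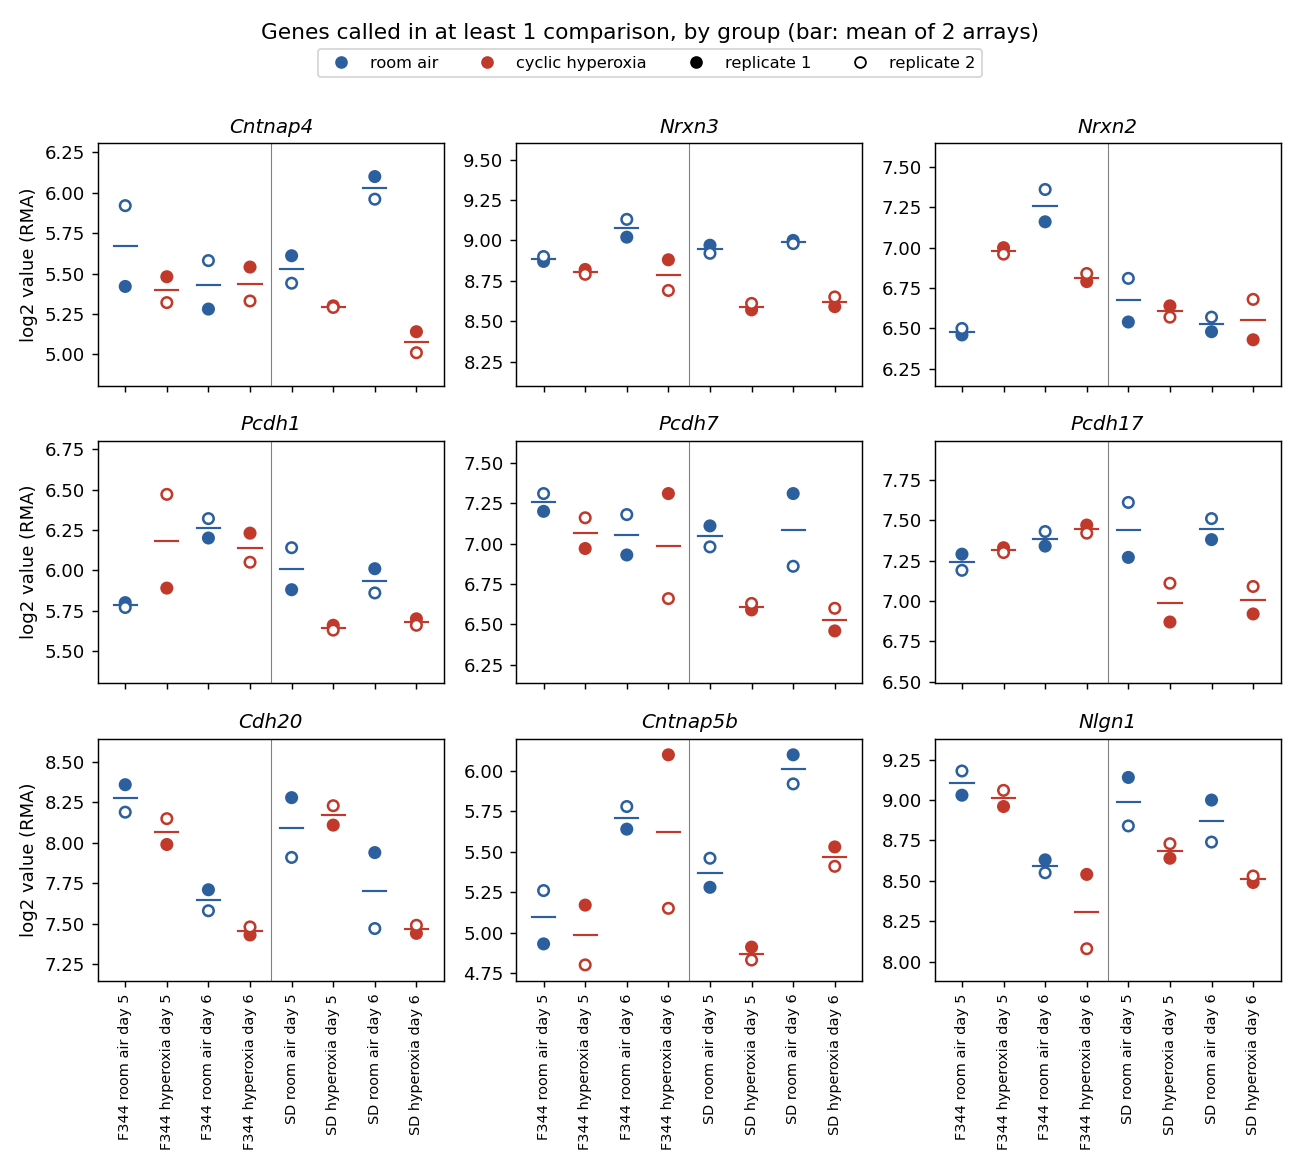
Deposited log2 value (vertical axis, the same span of 1.5 in each panel) of the 9 genes called in at least 1 comparison, by group (horizontal axis, F344 left and SD right of the line). Filled and open points are replicates 1 and 2 and bars their mean; Cntnap4 is lowest in SD hyperoxia day 6, at 5.14 and 5.01, and the mean of Cdh20 is lower on day 6 than on day 5 in each strain and condition.

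Days were compared within room air and within hyperoxia, over both strains. In room air 2 of 37 members (5.41%) were called, against 3% of all genes (1.29% higher and 1.71% lower), and under hyperoxia 3 (8.11%), against 4.8% (2.1% higher and 2.7% lower). Unadjusted p-values under 0.05 were reached by 6 members (16.2%, against 15.2% of all genes) and 8 members (21.6%, against 18.3%), shares near the background. Cdh20 was lower and Cntnap5b higher on day 6 in both conditions, and Nlgn1 was lower on day 6 under hyperoxia. The room air and hyperoxia comparisons share no arrays.

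Cdh20, a type II cadherin, read 8.36, 8.19, 8.28 and 7.91 in room air on day 5 (F344, then SD) and 7.71, 7.58, 7.94 and 7.47 on day 6. Under hyperoxia it read 7.99, 8.15, 8.11 and 8.23 on day 5 and 7.43, 7.48, 7.44 and 7.49 on day 6. The days did not overlap under hyperoxia, and in room air only 1 day 6 array, SD array 1 at 7.94, reached above a day 5 array. Cdh20 fell by 1.58-fold under hyperoxia (-0.66 ± 0.11, limma adjusted p = 0.00173) and by 1.43-fold in room air (-0.51 ± 0.11, adjusted p = 0.021). The hyperoxia call was kept whichever of the 16 arrays was omitted, from -0.70 to -0.62. The room air call was lost without F344 day 5 room air array 1 (adjusted p = 0.0966), SD day 5 room air array 1 (0.128), F344 day 6 room air array 1 (0.0521) or 2 (0.11), or SD day 6 room air array 2 (0.0885).

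Cntnap5b, a contactin-associated protein of the neurexin superfamily, read 4.93, 5.26, 5.28 and 5.46 in room air on day 5 and 5.64, 5.78, 6.10 and 5.92 on day 6, without overlap. Under hyperoxia it read 5.17, 4.80, 4.91 and 4.83 on day 5 and 6.10, 5.15, 5.53 and 5.41 on day 6. Only the F344 array that stood apart, at 5.15, overlapped with day 5. It rose by 0.63 ± 0.16 in room air (adjusted p = 0.0424) and by 0.62 ± 0.16 under hyperoxia (adjusted p = 0.0331). The hyperoxia change was 0.86 without that array and 0.38 (adjusted p = 0.0383) without the other array of its group. Day 5 means were below the lowest array median, so its ratios of 1.55 and 1.54 include background.

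The room air call of Cntnap5b held in 5 of 16 fits with an array left out and was lost without any of the 4 SD hyperoxia arrays, any of the 4 SD room air arrays, F344 day 5 room air array 1 or either F344 room air day 6 array (0.55 to 0.67, adjusted p up to 0.192). The hyperoxia call was lost without F344 day 5 hyperoxia array 2 or any of the 4 SD hyperoxia arrays (0.53 to 0.65, adjusted p up to 0.15). Counts of called members were 0 in room air without F344 day 5 room air array 1, SD day 5 room air array 1, F344 day 6 room air array 1 or 2, or SD day 6 room air array 2, and 1 without any of the 4 SD hyperoxia arrays or SD day 6 room air array 1. Under hyperoxia they were 6 without F344 day 6 hyperoxia array 1 (Cdh7, Cdh20, Cdh22, Cntn6, Cntnap5b and Nlgn1, with 12.5% of all genes called) and 1, Cdh20, without F344 day 5 hyperoxia array 2 or any of the 4 SD hyperoxia arrays.

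Nlgn1 read 8.96, 9.06, 8.64 and 8.73 under hyperoxia on day 5 and 8.54, 8.08, 8.49 and 8.53 on day 6, without overlap. It fell 1.36-fold (-0.44 ± 0.11, adjusted p = 0.024). In room air it read 9.03, 9.18, 9.14 and 8.84 on day 5 and 8.63, 8.55, 9.0 and 8.74 on day 6, where SD overlapped (-0.32 ± 0.11, adjusted p = 0.135). The call was lost without any of the 4 hyperoxia day 5 arrays, F344 day 6 hyperoxia array 2 (-0.33, adjusted p = 0.0775) or either SD hyperoxia day 6 array, at an adjusted p of up to 0.114. The day differences of the other neuroligins were not called, at 0.12 ± 0.17 in room air and -0.03 ± 0.17 under hyperoxia for Nlgn2 and at 0.12 ± 0.08 and 0.04 ± 0.08 for Nlgn3.

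Markers of progenitors and dividing cells were lower on day 6, beside the falls of Cdh20 and Nlgn1. The 5 measured of 7 had medians of -0.94 in room air, with 3 called, and -0.97 under hyperoxia, with 5 called. Their summed linear level was 1530 to 3020 over the day 5 groups and 1020 to 1600 over the day 6 groups. Rod markers were higher on day 6, beside the rise of Cntnap5b (median 0.48 with 1 called in room air and 0.55 with 5 called under hyperoxia, 5 measured of 7). Bipolar markers were higher by median as well (0.42 and 0.36, 2 of 4 called in each), though 1 of 4 was lower under hyperoxia. The part of these markers in the day differences was not tested.

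**Figure D4:**
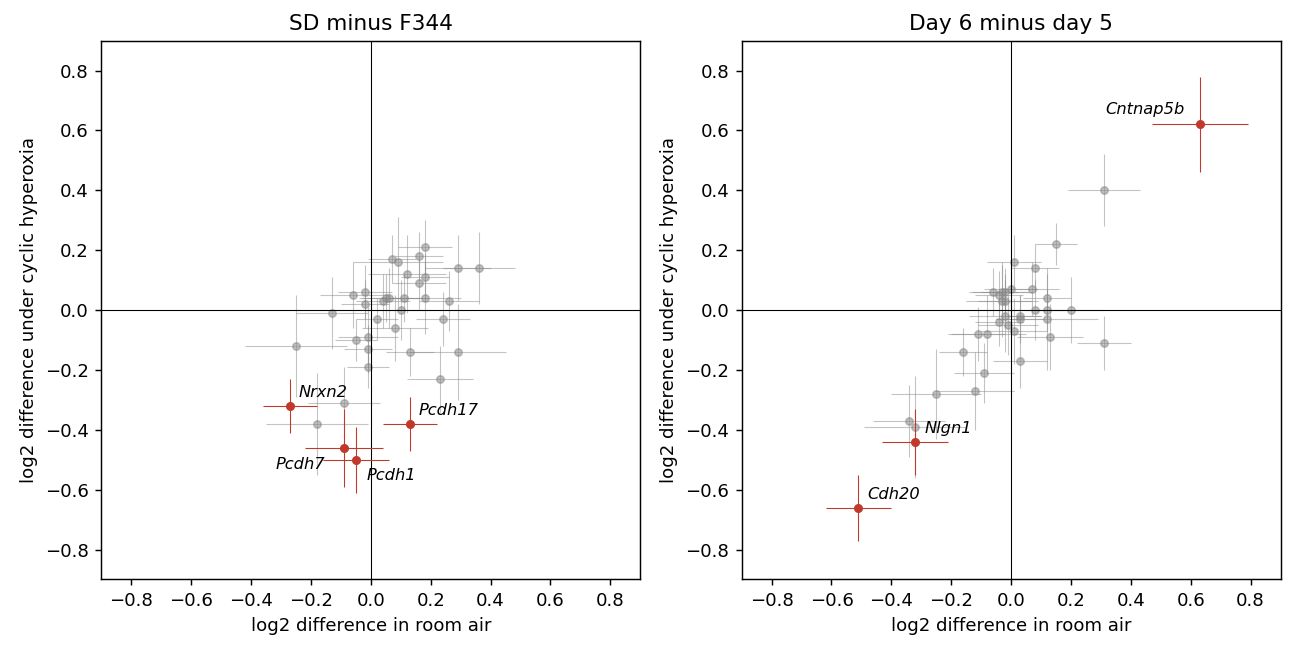
Log2 difference in room air (horizontal axis) against that under cyclic hyperoxia (vertical axis) for SD minus F344 (left) and day 6 minus day 5 (right), 37 genes, bars are moderated standard errors and red points are called in at least 1 condition. On the left the 4 called genes lie below 0 under hyperoxia, at -0.50 to -0.32, and on the right Cdh20 (-0.51 and -0.66) and Cntnap5b (0.63 and 0.62) lie at opposite ends.

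Promoters of members were read from the RefSeq table of the rat assembly GRCr8, which held 27 of the 37, as the 250 bases upstream of each table start. They are shown for the 3 genes that differed between days and for 2 of the protocadherins that differed between strains, so that their base composition can be seen. Capitals mark the hypoxia response element cores ACGTG and GCGTG or their reverse complements CACGT and CACGC, searched on both strands. The windows are chr13:21515017-21515266 on the plus strand for Cdh20, chr13:18378085-18378334 on the plus strand for Cntnap5b, chr2:110930677-110930926 on the minus strand for Nlgn1, chr15:66632892-66633141 on the plus strand for Pcdh17 and chr14:57113523-57113772 on the minus strand for Pcdh7. Table starts need not be the outermost start of a gene. Of the 27 windows, 15 lie inside the gene's annotated span (those of Cdh20, Nlgn1, Pcdh17 and Pcdh7 among them), 9 partly inside (as for Cntnap5b) and 3 outside it.
Cdh20: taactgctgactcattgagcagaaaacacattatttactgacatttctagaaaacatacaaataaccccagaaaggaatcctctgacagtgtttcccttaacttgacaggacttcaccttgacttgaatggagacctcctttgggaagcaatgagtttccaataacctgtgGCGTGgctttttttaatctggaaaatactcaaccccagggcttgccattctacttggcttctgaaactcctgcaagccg
Cntnap5b: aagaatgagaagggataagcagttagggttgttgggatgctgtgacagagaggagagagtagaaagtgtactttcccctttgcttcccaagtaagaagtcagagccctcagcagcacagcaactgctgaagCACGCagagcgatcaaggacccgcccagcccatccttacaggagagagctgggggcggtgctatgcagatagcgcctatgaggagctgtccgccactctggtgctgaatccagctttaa
Nlgn1: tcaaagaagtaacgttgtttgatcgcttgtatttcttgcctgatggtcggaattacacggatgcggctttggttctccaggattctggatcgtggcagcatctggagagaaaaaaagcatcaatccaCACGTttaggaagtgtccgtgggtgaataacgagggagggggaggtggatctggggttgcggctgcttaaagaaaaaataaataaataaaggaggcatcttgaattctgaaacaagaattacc
Pcdh17: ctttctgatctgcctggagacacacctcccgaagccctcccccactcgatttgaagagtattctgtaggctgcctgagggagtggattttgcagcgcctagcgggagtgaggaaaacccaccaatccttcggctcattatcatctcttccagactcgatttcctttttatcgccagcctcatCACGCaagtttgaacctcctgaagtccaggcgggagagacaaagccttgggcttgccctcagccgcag
Pcdh7: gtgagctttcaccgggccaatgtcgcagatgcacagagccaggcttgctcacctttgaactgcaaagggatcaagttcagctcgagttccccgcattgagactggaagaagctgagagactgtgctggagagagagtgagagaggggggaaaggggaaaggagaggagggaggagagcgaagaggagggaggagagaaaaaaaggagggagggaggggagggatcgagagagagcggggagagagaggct

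The Cdh20 window had 2 CG dinucleotides and 42.4% G and C, and its GCGTG began 79 bases before the table start. The Cntnap5b window had 6 CG dinucleotides and 53.6% G and C, with CACGC 119 bases before the start. Nlgn1 (10 CG dinucleotides, 44.4%) held CACGT 123 bases before the start and Pcdh17 (10, 54.4%) CACGC 68 bases before it. Pcdh7 (7, 57.2%) held neither core. The window of Pcdh1, the third protocadherin that differed between strains, is not shown. It had 25 CG dinucleotides and 76.8% G and C and also held neither core. Over the 27 members the median was 9 CG dinucleotides, against 5 over all 33469 promoters of the table. The core ACGTG was in 2 of the 27 (7.41%), Nlgn1 and Cdh15, against 16.6% of all promoters. The core GCGTG was in 9 (33.3%), against 25.9% of all promoters. The photoreceptor motif TAATCC, bound by CRX and OTX2, was in 0 of 27 (0%), against 6.34%. These matches describe letters in a window and no binding.

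Some members lie side by side in the genome. In the order of protein-coding genes on GRCr8, 0 genes separate Cdh7 from Cdh19 and Cntn6 from Cntn4, and 1 separates Cntnap5b from Cdh20, the members with opposite day differences. Between Pcdh8 and Pcdh17 there are 3 genes. The strain difference under hyperoxia was 0.06 ± 0.09 for Pcdh8 (adjusted p = 0.741) and -0.38 ± 0.09 for Pcdh17, and the difference between these was not tested.

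Companion genes of the same adhesion systems, 65 measured, give the surroundings of these results. They hold catenins, partners of neurexins and neuroligins, scaffolds, immunoglobulin-type molecules and giant cadherins. On day 6 in SD, limma called 3 of 65 (4.62%, against 2.79% of all genes), all lower and all synaptic or junctional scaffolds, Dlg1 (-0.67 ± 0.15, adjusted p = 0.0276), Dlg2 (-0.52 ± 0.13, adjusted p = 0.0391) and Magi1 (-0.45 ± 0.11, adjusted p = 0.0407). All 3 of these SD calls were lost without SD day 6 hyperoxia array 1 or 2 or SD day 6 room air array 1. In the mean of strains on day 6, Magi1 (-0.31 ± 0.08, adjusted p = 0.0317) and the synaptic organiser Slitrk1 (-0.38 ± 0.11, adjusted p = 0.0455) were called lower. These were 2 of 65 (3.08%), against 6.74% of all genes in either direction and 2.73% lower. The companions' median was -0.22 in SD on both days, with 51 of 65 lower on day 6 and 56 on day 5. In F344 it was 0.00 on day 5, with 33 of 65 lower, and -0.17 on day 6, with 53 of 65 lower. On day 5, 0 companions were called in either strain, and on day 6, 0 in F344.

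Between strains under hyperoxia, 11 companions (16.9%) were lower and 1 (1.54%) higher in SD, against 3.78% of all genes lower. The lower ones were led by the seven-pass cadherin Celsr3 (-0.71 ± 0.09, adjusted p = 0.000208), the axonal L1cam (-0.51 ± 0.12, adjusted p = 0.0143), Dscaml1 (-0.50 ± 0.13, adjusted p = 0.0267), the giant cadherin Dchs1 (-0.49 ± 0.10, adjusted p = 0.00555) and Apba1 (-0.47 ± 0.10, adjusted p = 0.0109). The postsynaptic scaffold Dlg4 was higher (0.38 ± 0.11, adjusted p = 0.0453). In room air 6 of 65 (9.23%) were called, near the 9.35% of all genes. Higher in SD were 4, Ncam2 (0.45), Flrt3 (0.44), Dlg2 (0.35) and Nrcam (0.34), at adjusted p-values of 0.0222 to 0.0349, and 2 were lower, Celsr3 (-0.44 ± 0.09, adjusted p = 0.00709) and Dchs1 (-0.33 ± 0.10, adjusted p = 0.0429). Between days, Slitrk3 (0.62 ± 0.13, adjusted p = 0.0201) and Celsr3 (0.37 ± 0.09, adjusted p = 0.037) were higher on day 6 in room air. These were 2 of 65 (3.08%), near the 3% of all genes. Magi1 was lower on day 6 under hyperoxia (-0.35 ± 0.08, adjusted p = 0.016), the only 1 of 65 (1.54%), against 4.8% of all genes. The other companion calls were not examined with arrays left out.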

How the data were processed

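Retinal RNA of 16 pools was hybridised as biotin-labelled sense target to Affymetrix gene arrays, per the labels' protocols, without reduction of ribosomal RNA. The authors deposited log2 values of 27342 probe sets, made with Partek 6.4 and RMA per the submitters' processing notes, whose normalization hides any change shared by most genes. Genes were named for 15097 probe sets with 1 symbol (323 had several, 11922 were not listed), and 15067 were matched to RefSeq GRCr8. For the 499 genes with several sets, the set with the highest 16-array mean stood for the gene. Limma 3.58.1 in R 4.3.3 fitted 1 mean per group to all 16 arrays (8 residual and 7.41 prior degrees of freedom). The fit was also run on simulated data with independent noise, which cannot test the spread among pools or effects shared within an array. Named with values are the 12 highest members, called members, the 2 smallest p-values where none was called, fixed neurexins, neuroligins and cadherins, and called companions, up to 5 each way. Pcdh7, Pcdh17, Cntn1, Cntn4, Cntn5, Cdh2, Cdh22, Cntnap1 and Nlgn1 are also given where they did not pass, chosen after their values were seen, as were markers shown beside results. Alternatives were the mean over probe sets, a filter on dim sets, quantile normalization, only the arrays compared, a replicate block and leaving out each array. The members and lists were chosen with earlier results of these data known. The number of arrays limits the precision.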

Additional observations from a re-analysis of the deposited data

Results flagged for a closer look

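The oxygen effect on Nrxn2 differed between days within F344, a contrast tested after the data were seen. Day 6 minus day 5 was -0.94 ± 0.17 (limma adjusted p = 0.0249), from 0.50 ± 0.12 on day 5 and -0.45 ± 0.12 on day 6. It was the only 1 of 37 members called in this contrast, in which 1.02% of all genes were called and 3 members (8.11%) had an unadjusted p under 0.05, against 14.6% of all genes. In SD the same contrast was 0.10 ± 0.17 (adjusted p = 1), with 0 members called against 0.112% of all genes, and 1 member (2.7%) at an unadjusted p under 0.05, against 3.78%. The call was kept in 11 of 16 fits with an array left out (-1.04 to -0.84). It was lost without F344 day 5 hyperoxia array 1 or 2, F344 day 5 room air array 1, or F344 day 6 room air array 1 or 2. With the mean over both probe sets it was -0.52 (adjusted p = 0.149), after quantile normalization -0.82 (0.0568), and with only the F344 arrays -0.94 (0.0851).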

How the results depend on the processing

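With a replicate block, a filter on dim probe sets or quantile normalization, all 14 counts of called members stayed within 1.5 times. All 28 changes of named members in the planned comparisons kept their call and direction. The contrast added for Nrxn2 in F344 is not among these 28, and it lost its call after quantile normalization. The counts under the replicate block were 0 to 4 members in the comparisons and 10 in place of 11 over the 8 groups. The labels do not say what same-numbered arrays share. Deviations of same-numbered arrays correlated at -0.29 to 0.52 over 28 pairs of groups, with 8 above 0.1. This cannot decide whether a number marks a shared batch or litter. With only the arrays compared, 1 member in place of 2 was called for the day 6 mean of strains (Nrxn3 at an adjusted p of 0.0747) and 1 in place of 2 for the room air day difference (Cdh20 at 0.0833). In that setting Nrxn2 between strains under hyperoxia (0.0501) and Cntnap5b between days under hyperoxia (0.0617) also lost their call. The mean over probe sets changed the call of Nrxn2. Leaving out each array in turn gave 0 to 4 called members on day 6 in SD, 0 to 2 on day 6 in F344, 0 to 11 in the day 6 mean, 0 to 1 between strains in room air, 0 to 5 between strains under hyperoxia, 0 to 2 between days in room air, 1 to 6 between days under hyperoxia and 5 to 21 over the 8 groups, and 0 to 0 in the other 6 comparisons. No change of a named member was reversed. Dim genes and 2 arrays per group limit the precision.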
